A study of Mus musculus with 6 samples.

Results

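The genes described here are the mitochondrial genome and 9 annotated nuclear copies of mitochondrial genes, 46 of the 27240 genes in the deposited table. They were chosen by name, as every gene whose symbol starts with mt- (13 mRNAs, 2 rRNAs and 22 tRNAs) and the 9 predicted genes Gm28439, Gm10222, Gm28438, Gm28437, Gm10925, Gm28661, Gm29216, Gm13341 and Gm13340. The set was put together with the knockout and wild-type values of these genes known, so their differences between genotypes are given below as descriptions. Calls, fold changes and their standard errors (SE) and intervals come from fits over all genes and do not test the set. Poly(A) RNA of mouse primary peritoneal macrophages, phagocytes of the abdominal cavity, was sequenced in 3 wild-type (WT) and 3 knockout (KO) libraries. Every library came from cells given oxLDL, oxidised low-density lipoprotein, so its effect was not measured. The series title names the kinase DCLK1. The labels give neither the deleted stretch, the mouse strain nor the age, and they do not state whether replicates are separate mice, so that the spread between replicates may be technical.

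Libraries held 68053008 to 79090732 counts, with a single count worth 0.0127 to 0.0147 CPM, the unit of counts made comparable between libraries by size and TMM factor. Dclk1 itself had 494, 498 and 584 counts in WT and 415, 431 and 377 in KO libraries. Counts outside the deleted stretch would not check the label, and that stretch is not given. The 8 macrophage markers summed to 20381 to 21621 CPM in WT and 12610 to 12756 in KO, and 1 of them, the lysozyme gene Lyz2, passed edgeR's test (16349 ± 652 and 7970 ± 42.0 CPM, SD, n = 3, adjusted p = 6.5e-06). Of the others, Csf1r was lower (1021 and 965 CPM) and Itgam higher (327 and 513 CPM) in KO without overlap, while Adgre1, Cd68, Mertk, Fcgr1 and Cd14 overlapped. Summed markers of other cells were low: 66.3 to 75.5 CPM for neutrophils (with Ly6g at 0), 61.3 to 84.6 for fibroblasts and mesothelium, 5.50 to 8.93 for T and NK cells, 3.02 to 6.10 for mast cells and 0.853 to 2.72 for B cells. Except for the B cell list, whose ranges overlapped, each of these sums was lower in every KO library than in every WT library. Not every marker followed its sum. Of the markers fitted, 1 of 5 for T and NK cells and 2 of 8 for fibroblasts and mesothelium had a log2 fold change (KO over WT) above 0. The neutrophil gene S100a9, not fitted, had 4, 0 and 0 counts in WT and 15, 15 and 8 in KO. The part of these other cells in the results below was not tested. The chromosome 1 copies set KO replicate 1 apart from KO replicates 2 and 3, and for Gm28437 and mt-Co3 they set WT replicate 2 apart from its group. The fold changes of the copies are given with and without these libraries.

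Mitochondrial DNA is a small circular genome that is transcribed from both strands as long precursors. The tRNAs are cut out of these precursors, which releases the rRNAs of the mitochondrial ribosome and the mRNAs of respiratory chain and ATP synthase subunits, most of which receive a short poly(A) tail. Fragments of mitochondrial DNA have also been inserted into nuclear chromosomes during evolution, and a young insertion can be so similar to its source that short reads cannot be assigned to one or the other.

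A group of 7 annotated copies, Gm29216, Gm28661, Gm10925, Gm28437, Gm28438, Gm10222 and Gm28439, lay side by side on the minus strand of chromosome 1 (chr1:24611535-24616197, coordinates as deposited, the same as in the GRCm38 annotation GENCODE M21). They aligned in 1 unbroken order to positions 6381 to 11042 of the mitochondrial genome, a stretch of 4662 bases against 4663 bases on chromosome 1. Over the 4149 bases of these copies, 7 differed from the mitochondrial gene. Gm28661 (mt-Co2), Gm10925 (mt-Atp6), Gm28437 (mt-Co3), Gm10222 (mt-Nd4l) and Gm28439 (mt-Nd4) were identical to it over 681, 678, 783, 294 and 876 bases. Gm28438 differed from mt-Nd3 at 1 base, and Gm29216 from mt-Co1 at 6 bases near its own 5′ end. The 2 copies on chromosome 2, Gm13341 and Gm13340, were more diverged, with 16 substitutions and 12 gap bases against mt-Co2 and 37 substitutions against mt-Co1.

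The first set of sequences shows a window in which mt-Co2 and its chromosome 1 copy cannot be told apart by sequence, whereas the chromosome 2 copy differs. The same 100 bases of each gene are given 5′ to 3′ from GENCODE M21, with capitals at the bases that differ from the mitochondrial gene. Their positions are MT:7213-7312 on the plus strand, and chr1:24615266-24615365 and chr2:22587663-22587762 on the minus strand.
mt-Co2: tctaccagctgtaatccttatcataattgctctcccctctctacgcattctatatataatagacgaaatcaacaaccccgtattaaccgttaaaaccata
Gm28661: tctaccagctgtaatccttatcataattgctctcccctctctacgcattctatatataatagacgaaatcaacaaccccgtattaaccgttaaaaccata
Gm13341: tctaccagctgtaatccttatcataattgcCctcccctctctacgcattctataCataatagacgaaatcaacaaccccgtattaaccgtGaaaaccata

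The second set shows the annotated start of the chromosome 1 copies, inside mt-Co1. It holds 6 of their 7 differences, aligned as T1056A, C1057T, A1059G, A1060G, C1062A and A1066T (counted from the 5′ end of mt-Co1, with the mitochondrial base first). All 6 lie within the first 13 bases of Gm29216. The alignment therefore does not fix the base at which its match to mt-Co1 begins. The positions are MT:6378-6457 on the plus strand, and chr1:24616121-24616197 and chr2:22588518-22588597 on the minus strand. Gm29216 starts 3 bases after the first base shown of the other genes, and capitals again mark differences from the mitochondrial gene.
mt-Co1: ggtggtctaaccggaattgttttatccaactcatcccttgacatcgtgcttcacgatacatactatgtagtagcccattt
Gm29216: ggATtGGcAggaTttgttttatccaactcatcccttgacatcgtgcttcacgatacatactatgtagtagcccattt
Gm13340: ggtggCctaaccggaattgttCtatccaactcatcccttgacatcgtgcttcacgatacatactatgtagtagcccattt

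The third set shows the 1 remaining difference among the annotated chromosome 1 copies, T3C. It is counted from the first base of mt-Nd3 (MT:9459-9518, plus strand) and of Gm28438 (chr1:24613060-24613119, minus strand).
mt-Nd3: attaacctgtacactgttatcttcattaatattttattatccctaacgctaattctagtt
Gm28438: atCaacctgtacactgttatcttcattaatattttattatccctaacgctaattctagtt

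Counted as sequences of 50 bases shared with any other GENCODE M21 transcript, mt-Co2 shared 100%, mt-Co3 99.9%, mt-Atp6 99.5%, mt-Nd4l 98.8% and mt-Nd3 98.0%. For mt-Nd4 and mt-Co1, which the chromosome 1 copies cover in part, the share was 62.2% and 51.1%. It was 8.19% for mt-Nd2, 7.61% for mt-Nd5 and 1.04% for mt-Rnr2, and 0 for mt-Rnr1, mt-Nd1, mt-Nd6, mt-Cytb, mt-Atp8 and all 22 tRNAs. These values cover annotated transcripts only. mt-Atp8 and the tRNAs mt-Ts1, mt-Td, mt-Tk, mt-Tg and mt-Tr lie inside the copied stretch, but the 7 annotated chromosome 1 copies do not include them. Levels of mt-Co2, mt-Co3, mt-Atp6, mt-Nd4l, mt-Nd3, mt-Nd4, mt-Co1 and of the 7 chromosome 1 copies are therefore uncertain as single-gene values. The bases between the annotated copies were not compared, so the levels of mt-Atp8 and these tRNAs may be uncertain too.

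The 46 genes together took nearly the same part of each library. Their summed level was 23657, 23956 and 23756 CPM in WT replicates 1, 2 and 3 and 23927, 24038 and 23772 CPM in KO replicates 1, 2 and 3, a ratio of group means of 1.01. The groups overlapped on this scale. As a plain share of the counts they did not, at 2.36% in each WT library and 2.41, 2.41 and 2.40% in the KO libraries. Within that total the 37 mitochondrial genes stood at 20936.8 ± 654 CPM in WT and 23339.8 ± 801 in KO (SD, n = 3), 1.11 times as high, and the 9 copies at 2852.5 ± 547 in WT and 573 ± 807 in KO. In RNA from bulk cells, fewer cells of a type and less RNA per cell cannot be told apart.

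Of the 46 genes, 40 had enough counts to be kept among the 16239 genes fitted with edgeR, and 6 tRNAs did not. At an adjusted p under 0.05, edgeR's quasi-likelihood test called 0 of the 40, against 0.0677% of all genes fitted (0.0246% higher and 0.0431% lower in KO). At an unadjusted p under 0.05 it counted 12, against 10.4% of all genes. DESeq2 called 8 (mt-Rnr1, mt-Rnr2, mt-Co2, mt-Atp8, mt-Atp6, mt-Nd3, mt-Nd4l and mt-Nd4), against 3.77% of the genes to which it gave an adjusted p. Without KO replicate 1 edgeR called 12 of 41, against 0.207% of all genes in that fit. They were mt-Co2, mt-Atp8, mt-Atp6, mt-Nd3, mt-Nd4l, mt-Nd4 and the chromosome 1 copies other than Gm28437. Without WT replicate 2 edgeR called mt-Co3 alone, against 0.142% of all genes in that fit. In 15 genes every KO library lay above every WT library (8.68% of all genes fitted), and in 6 genes every one lay below (8.89%), together 52.5% of the 40 against 17.6% of all genes. The set was chosen on this contrast, and nothing is read from these counts.

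The chromosome 1 copies carried the widest differences between libraries. Gm28661, the copy of mt-Co2, was at 726, 722 and 867 CPM in WT and at 421, 33.6 and 21.8 CPM in KO replicates 1, 2 and 3. The WT libraries were alike, KO replicate 1 lay between them and the other KO libraries, and the groups did not overlap. Gm29216, the copy of part of mt-Co1, was at 479, 525 and 635 CPM in WT and 310, 21.6 and 15.2 in KO. Gm28439, the copy of part of mt-Nd4, was at 287, 264 and 338 CPM in WT and 163, 12.2 and 7.60 in KO. Gm10925, the copy of mt-Atp6, was at 552, 515 and 628 CPM in WT and 300.0, 22.0 and 13.2 in KO. All 3 had the order seen for Gm28661, with KO replicate 1 in the middle.

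The shorter copies followed the same order at lower levels. Gm10222, the copy of mt-Nd4l, was at 126, 114 and 155 CPM in WT and 70.7, 5.67 and 3.53 in KO. Gm28438, the copy of mt-Nd3, was at 47.9, 46.3 and 57.0 CPM in WT and 29.1, 2.19 and 1.5 in KO. Gm28437, the copy of mt-Co3, departed from the order in 1 library: it was at 607, 123 and 721 CPM in WT and 204, 27.2 and 13.6 in KO, so that WT replicate 2 lay below KO replicate 1 and its groups overlapped. In WT replicate 2 Gm28437 stood at 25.4% of its WT mean, while the other 6 copies stood at 86.3 to 96.1% of theirs.

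Expressed as a percentage of each copy's WT mean, the 7 copies stood at 42.2 to 57.7% (median 54.5%) in KO replicate 1, at 3.89 to 5.62% (median 4.31%) in KO replicate 2 and at 2.33 to 2.98% (median 2.79%) in KO replicate 3. The copies are neighbours of 1 stretch and are not independent of each other. Their fitted log2 fold changes (KO over WT) lay between -2.20 and -2.57, and between -4.57 and -5.01 without KO replicate 1. With the replicate number as a block the values were -2.99 to -3.83, and with limma on log2(FPKM + 1) they were -3.10 to -3.61. For Gm28661 the value was -2.28 (SE 1.03, 95% interval -4.68 to 0.12), an interval that holds 0, with KO libraries that ranged from 21.8 to 421 CPM; without KO replicate 1 it was -4.80. For Gm28437 it was -2.57, against -3.02 without WT replicate 2. The 7 copies summed were 5.03 times as high in WT as in KO, and 28.3 times as high without KO replicate 1.

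**Figure D1:**
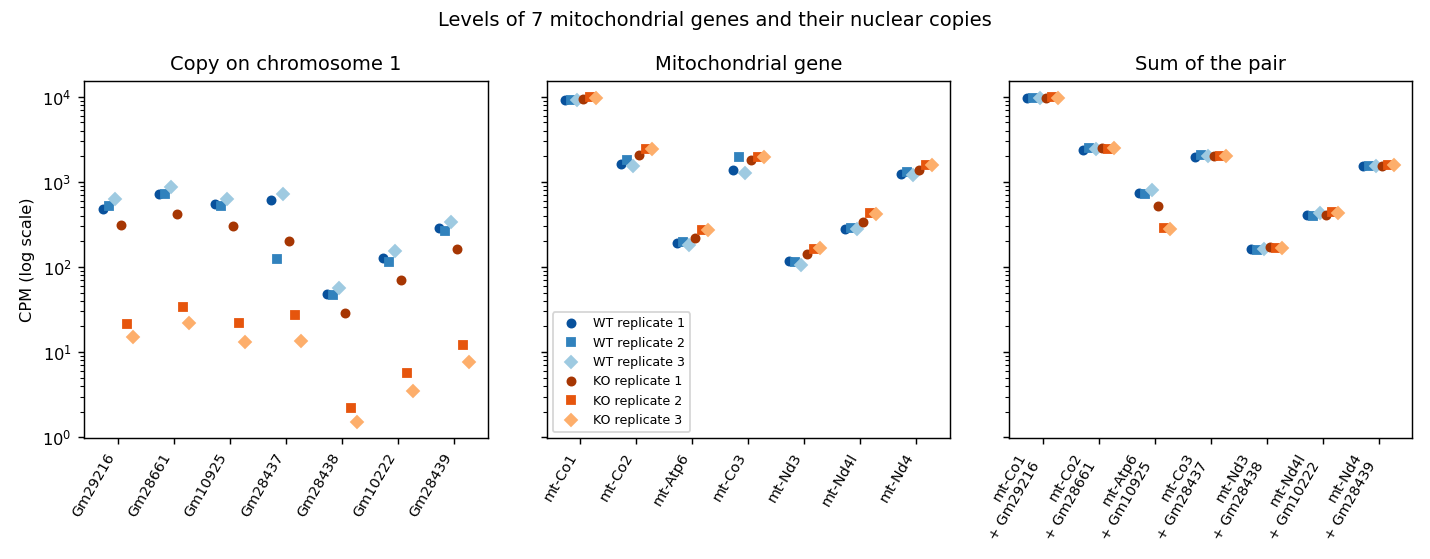
Level of each chromosome 1 copy, of its mitochondrial gene and of their sum, in CPM on a log axis, with 1 point per library. In the left panel KO replicates 2 and 3 lie far below the WT libraries and KO replicate 1 lies between, except for Gm28437, where WT replicate 2 lies below KO replicate 1; in the right panel the libraries of each pair lie close together except for mt-Atp6 with Gm10925.

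The part of each pair's counts that was assigned to the copy gives the same contrast within a library, free of scaling between libraries. For mt-Co2 with Gm28661, the copy held 30.7, 28.8 and 36.1% of the pair's counts in WT and 17.1, 1.36 and 0.884% in KO. The 95% Wilson interval in KO replicate 1 was 16.9 to 17.2%, so counting error is small beside the gap to the other KO libraries (such intervals cover counting error only). For mt-Nd3 with Gm28438 the copy held 29.2, 29.0 and 35.3% in WT and 17, 1.33 and 0.902% in KO, and for mt-Nd4l with Gm10222 it held 31.2, 28.5 and 36.0% in WT and 17.2, 1.29 and 0.829% in KO. These 3 pairs gave nearly equal shares in a given library, although their levels differed. For mt-Co3 with Gm28437 the share was 30.7, 5.94 and 35.9% in WT and 10.3, 1.37 and 0.686% in KO. It was lower than in those 3 pairs in WT replicate 2 and in KO replicates 1 and 3.

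Where the copy covers part of its gene the share was smaller. It was 18.9, 17 and 21.9% in WT and 10.7, 0.777 and 0.477% in KO for mt-Nd4 with Gm28439, which covers 63.6% of mt-Nd4. For mt-Co1 with Gm29216, which covers 31.8% of mt-Co1, it was 4.91, 5.37 and 6.54% in WT and 3.18, 0.220 and 0.158% in KO. The pair of mt-Atp6 and Gm10925 stood apart with the highest shares, at 74.4, 72.3 and 77.7% in WT and 58.0, 7.57 and 4.67% in KO. On the mitochondrial genome mt-Atp6 overlaps mt-Atp8 by 43 bases and mt-Co3 by 1 base, and how the authors assigned reads that touch more than 1 gene is not given in the sources used here.

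**Figure D2:**
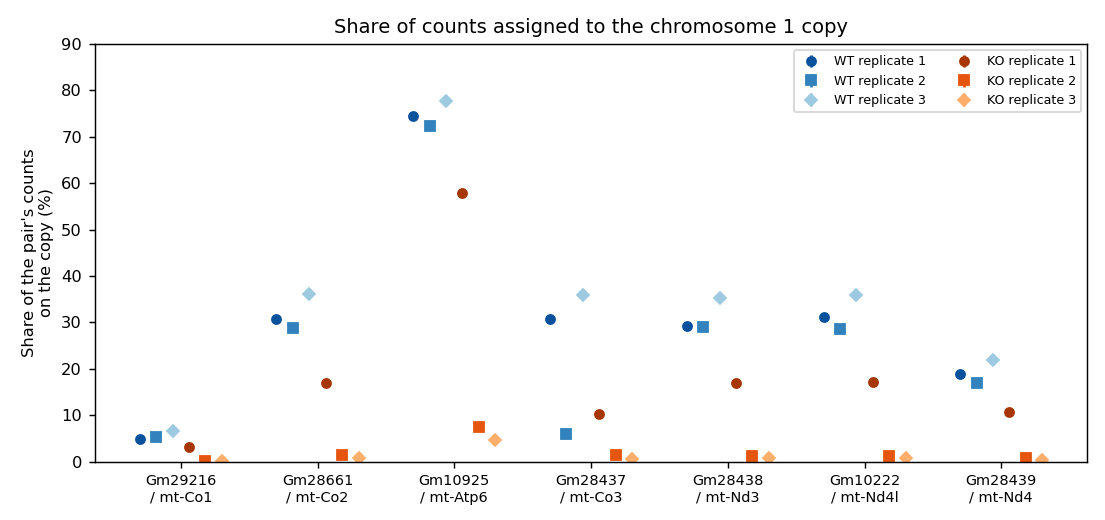
Percentage of the counts of each pair (mitochondrial gene plus chromosome 1 copy) assigned to the copy, with 1 point per library and 95% Wilson intervals smaller than most points. In each pair KO replicates 2 and 3 lie lowest; the WT libraries lie highest, except WT replicate 2 for Gm28437 with mt-Co3, which at 5.94% lies below the 10.3% of KO replicate 1.

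The mitochondrial mRNAs encode subunits of 4 enzyme complexes. Summed, they stood at 19981, 20862 and 19567 CPM in WT and 21456, 22953 and 22719 CPM in KO, a log2 ratio of group means of 0.15. All 13 had a fitted log2 fold change (KO over WT) above 0, with a median of 0.28 against -0.0019 over all genes fitted. They did not differ alike: genes inside the stretch copied on chromosome 1 carried most of the difference, in complexes I, IV and V.

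Complex I (NADH dehydrogenase) has 7 subunits in the mitochondrial genome. mt-Nd4l, whose whole length is copied, was at 279, 284 and 276 CPM in WT and 340, 434 and 422 in KO, a log2 fold change of 0.51 (SE 0.088). mt-Nd3, also copied whole, was at 116, 113 and 105 CPM in WT and 142, 163 and 165 in KO (0.49, SE 0.072). mt-Nd4 was at 1231, 1288 and 1204 CPM in WT and 1359, 1563 and 1585 in KO (0.28, SE 0.059). In these 3 genes no KO library overlapped WT, and KO replicate 1 lay nearest to the WT libraries, the mirror image of its place among the copies. The 4 complex I genes outside the stretch lay close together in all libraries. mt-Nd1 was at 1183, 1203 and 1181 CPM in WT and 1226, 1241 and 1248 in KO (log2 fold change 0.06, SE 0.022). mt-Nd5, the longest of the mRNAs, was at 1911, 1912 and 1909 CPM in WT and 1906, 1949 and 1936 in KO (0.01). mt-Nd1 did not overlap between groups, whereas mt-Nd5 did, as did mt-Nd2 (0.01) and mt-Nd6 (0.03).

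mt-Cytb, the mitochondrially encoded subunit of complex III (cytochrome bc1), lies outside the stretch. It was at 1226, 1269 and 1266 CPM in WT and 1279, 1297 and 1283 in KO, a log2 fold change of 0.04 (SE 0.024) with no overlap.

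Complex IV (cytochrome c oxidase) has its 3 core subunits in the mitochondrial genome. mt-Co1, the catalytic subunit, was at 9261, 9249 and 9073 CPM in WT and 9453, 9824 and 9614 in KO (log2 fold change 0.07, SE 0.017). mt-Co2, which takes up electrons from cytochrome c, was at 1640, 1789 and 1534 CPM in WT and 2045, 2429 and 2448 in KO (0.48, SE 0.080). For both, every KO library lay above every WT library, by a small margin in mt-Co1 and a wide one in mt-Co2. mt-Co3 was at 1368, 1946 and 1286 CPM in WT and 1788, 1962 and 1971 in KO (0.31, SE 0.145). Its groups overlapped through WT replicate 2, the library in which its copy Gm28437 was low, and without that library its log2 fold change was 0.52.

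Complex V (ATP synthase) has a pair of membrane subunits in the mitochondrial genome. mt-Atp8 was at 445, 433 and 398 CPM in WT and 530, 637 and 615 in KO (log2 fold change 0.48, SE 0.075). mt-Atp6, part of the proton channel, was at 190, 197 and 180 CPM in WT and 218, 269 and 269 in KO (0.41, SE 0.086). Neither overlapped between groups.

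Arranged by place, the 6 mRNAs wholly inside the copied stretch (mt-Co2, mt-Atp8, mt-Atp6, mt-Co3, mt-Nd3 and mt-Nd4l) had a median log2 fold change of 0.48 and a range of 0.31 to 0.51 (0.36 to 0.61 without KO replicate 1). The 5 outside it (mt-Nd1, mt-Nd2, mt-Nd5, mt-Nd6 and mt-Cytb) had a median of 0.035 and a range of 0.013 to 0.06. The ranges did not touch, and mt-Co1 and mt-Nd4, which cross the ends of the stretch, lay at 0.07 and 0.28.

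Adding each chromosome 1 copy to its mitochondrial gene, an alternative chosen after seeing the data, removed nearly all of the difference in 6 of the 7 pairs. mt-Co2 with Gm28661 summed to 2366, 2511 and 2401 CPM in WT and 2465, 2463 and 2470 in KO (log2 fold change 0.02, SE 0.025, 95% interval -0.04 to 0.08). mt-Co3 with Gm28437 summed to 1975, 2069 and 2008 CPM in WT and 1993, 1990 and 1984 in KO (-0.02, SE 0.023), and WT replicate 2 no longer stood apart. mt-Co1 with Gm29216 stood at 9740.5 ± 33.4 CPM in WT and 9745.5 ± 110 in KO (0.0007, SE 0.013). The groups overlapped in all 3 sums. mt-Nd4 with Gm28439 (0.02) and mt-Nd4l with Gm10222 (0.05) overlapped too. mt-Nd3 with Gm28438 lay at 164, 160 and 162 CPM in WT and 171, 165 and 167 in KO (0.05, SE 0.038), without overlap.

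The exception was mt-Atp6 with Gm10925, whose sum was 742, 712 and 808 CPM in WT and 518, 291 and 282 in KO, a log2 fold change of -1.05 (SE 0.222, 95% interval -1.57 to -0.53). Here the sum was lower in KO although mt-Atp6 alone was higher. With the overlapping mt-Atp8 added, the sum was 1187, 1145 and 1206 CPM in WT and 1047, 928 and 897 in KO, still without overlap. All 7 pairs and mt-Atp8 together summed to 17355, 17607 and 17457 CPM in WT and 17371, 17406 and 17164 in KO, where the groups overlapped. The 7 pairs without mt-Atp8 summed to 16910, 17174 and 17059 CPM in WT and 16841, 16769 and 16549 in KO, every KO library below every WT library, a ratio of group means of 0.981. The groups did not overlap in 6 of the 7 mitochondrial genes alone and in 2 of the 7 sums, against 17.5% of all genes in the fit with the sums. Over the 7 pairs the median log2 fold change was 0.41 for the mitochondrial gene alone and 0.02 for the sum. In that fit edgeR called 11 of 16232 genes (0.0678%), none of them mitochondrial. Whether the reads counted on chromosome 1 came from RNA of that locus or from mitochondrial RNA was not tested, since the reads were not analysed here.

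**Figure D3:**
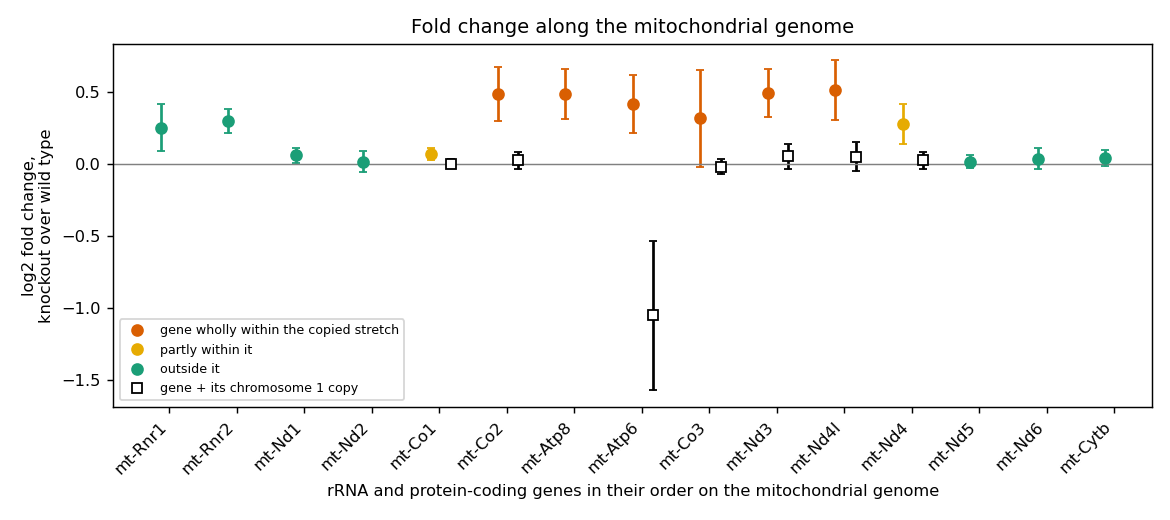
Fitted log2 fold change, KO over WT, of the 2 rRNAs and 13 mRNAs in their order on the mitochondrial genome, with 95% intervals from edgeR; open squares give the gene summed with its chromosome 1 copy. Genes inside the copied stretch lie between 0.31 and 0.51 and those mRNAs outside it between 0.013 and 0.06, while 6 of the 7 sums lie near 0 and that of mt-Atp6 at -1.05.

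Levels per length were set side by side on the deposited FPKM scale (counts scaled by gene length and library size). mt-Atp8 is 204 and mt-Nd4l 297 bases long, shorter than the labelled average insert of 300 bp. mt-Atp8 overlaps mt-Atp6 by 43 bases, and mt-Nd4l overlaps mt-Nd4 by 7 bases. How reads touching both genes were assigned is not given in the sources used here. The ranks of these genes are therefore uncertain as levels of RNA. By mean FPKM over the 6 libraries, mt-Co1 ranked first at 5473, ahead of mt-Co2 (2603), mt-Atp8 (2245) and mt-Co3 (1971). mt-Nd1 (1139), mt-Nd4l (1026), mt-Cytb (997), mt-Nd5 (946), mt-Nd4 (895) and mt-Nd6 (841) formed a middle group. mt-Nd2 (587), mt-Nd3 (346) and mt-Atp6 (291) ranked last. mt-Co1 was at 5324 ± 58.0 FPKM in WT and 5623 ± 104 in KO (SD, n = 3), more than its neighbour mt-Co2 in every library. Among the middle genes the order is not fixed. mt-Nd4l was at 842 ± 9.84 FPKM in WT and 1211 ± 156 in KO, and mt-Cytb at 980 ± 16 and 1014 ± 6.67. On these values the 2 genes exchanged places between genotypes, but they leave out Gm10222, the copy of mt-Nd4l. That copy was at 401 ± 65.4 FPKM in WT and 81.7 ± 117 in KO. All levels of mitochondrial genes given here leave out the counts assigned to the copies. For mt-Atp6 those counts exceeded its own in the WT libraries and in KO replicate 1.

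The 2 rRNAs of the mitochondrial ribosome were higher in KO and lie outside the copied stretch. mt-Rnr1, the RNA of the small subunit (MT:70-1024), was at 293, 255 and 245 CPM in WT and 321, 321 and 301 in KO, a log2 fold change of 0.25 (SE 0.070, 95% interval 0.09 to 0.41). mt-Rnr2, the RNA of the large subunit (MT:1094-2675), was at 485, 462 and 473 CPM in WT and 577, 566 and 599.8 in KO (0.30, SE 0.036, interval 0.21 to 0.38). Neither overlapped between groups, and KO replicate 1 did not stand apart here. Their sum was 737 ± 34.7 CPM in WT and 895 ± 7.35 in KO, 1.21 times as high.

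Nuclear RNAs that are made without a poly(A) tail, and that poly(A) libraries should hold little of, were read beside them. CT010467, annotated as ribosomal RNA of the nuclear genome, was at 645, 708 and 644 CPM in WT and 909, 1587 and 2636 in KO (log2 fold change 1.36, edgeR adjusted p = 0.190). Rn7s1 and Rn7s2, near-identical copies of the signal recognition particle RNA whose single values are uncertain, had log2 fold changes of 1.30 (adjusted p = 0.143) and 1.42 (adjusted p = 0.117). Rn7sk, an RNA that restrains transcription elongation, was at 0.642 ± 0.579 CPM in WT and 1.17 ± 0.480 in KO (0.86, adjusted p = 0.734), with 14 to 119 counts a library. Its log2 fold change was 1.88 without WT replicate 2 and 0.41 without WT replicate 3. Of 14 RNAs listed, 7 were in the table and 5 were tested; edgeR called 0 of the 5, with 4 at an unadjusted p under 0.05, and DESeq2 called 3. In 4 of the 5, CT010467, Rn7s1 and Rn7s2 among them, every KO library lay above every WT library (8.68% of all genes fitted). In Rn7sk the groups overlapped (edgeR unadjusted p = 0.249). The part of such RNA in the difference of the mitochondrial rRNAs was not tested.

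**Figure D4:**
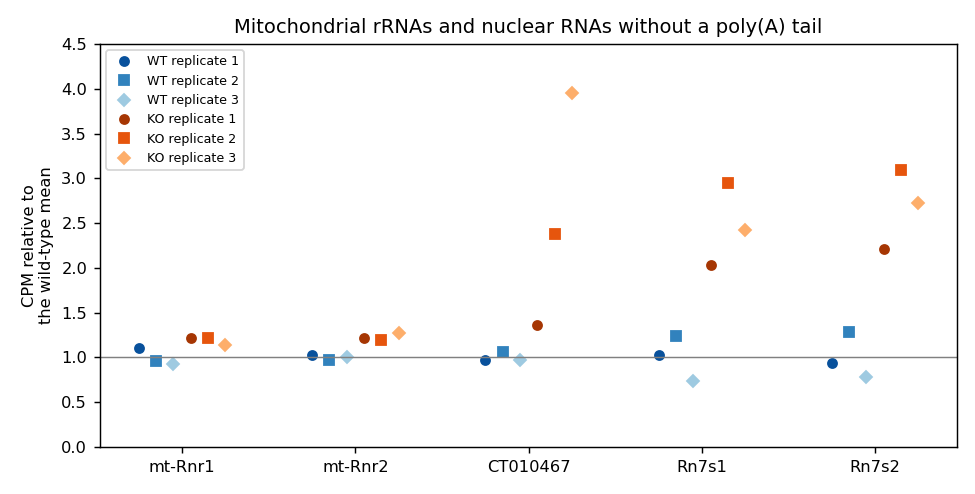
CPM of the 2 mitochondrial rRNAs and of 3 nuclear RNAs made without a poly(A) tail, divided by the WT mean of each, with 1 point per library. In each of these 5 RNAs every KO library lies above every WT library, with the widest spread among KO libraries in CT010467 (909 to 2636 CPM). Rn7sk, whose groups overlapped, is not drawn.

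The 22 tRNAs, which carry amino acids to the mitochondrial ribosome, are 59 to 75 bases long, far shorter than the labelled average insert of 300 bp. Their counts were uneven: 8 tRNAs (mt-Tl1, mt-Tn, mt-Tp, mt-Te, mt-Ta, mt-Tc, mt-Ty and mt-Tw) held 95.2% of all tRNA counts, and mt-Tl1, the leucine tRNA directly behind mt-Rnr2, held 24.1%. The 2 that follow show the best counted tRNA of each strand outside the cluster of 5 tRNA genes before mt-Co1, mt-Tl1 (MT:2676-2750, plus strand) and the proline tRNA mt-Tp (MT:15356-15422, minus strand), as GENCODE M21 gives them.
mt-Tl1: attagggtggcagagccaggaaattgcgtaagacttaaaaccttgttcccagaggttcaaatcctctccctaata
mt-Tp: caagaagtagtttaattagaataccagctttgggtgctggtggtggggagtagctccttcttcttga

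The tRNAs differed by strand. The 8 on the minus strand had a median of 77.5 FPKM (0.459 to 139) and the 14 on the plus strand a median of 3.54 FPKM (0.328 to 190). Whether the authors' counts used strand is not given in the sources used here. Without strand, counts on a minus-strand tRNA cannot be told apart from the plus-strand precursor that runs through the same bases, and the same holds for mt-Nd6, the mRNA encoded on that strand.

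The tRNAs summed to 64.2, 62.4 and 62.2 CPM in WT and 69.4, 67.6 and 69.9 in KO, a log2 ratio of 0.13 without overlap. mt-Tl1 was at 14.5, 14.4 and 14.8 CPM in WT and 16.2, 17.7 and 17.7 in KO (log2 fold change 0.24, SE 0.075), the same direction as mt-Rnr2 beside it. mt-Ta, the alanine tRNA, was at 6.24, 6.20 and 5.99 CPM in WT and 7.54, 6.41 and 6.96 in KO, and mt-Tc, the cysteine tRNA, at 4.72, 4.56 and 4.79 in WT and 6.36, 4.99 and 5.32 in KO. In mt-Tl1, mt-Ta, mt-Tc and mt-Tn, 25% of the tRNAs fitted, every KO library lay above every WT library, against 8.68% of all genes. mt-Tp went the other way, at 11.5, 10.4 and 10.1 CPM in WT and 9.62, 9.45 and 11.1 in KO (-0.09), with overlap. Of the 16 tRNAs fitted, 12 had a value above 0, against 49.5% of all genes fitted. Of those 16, mt-Tf, mt-Tv, mt-Ti, mt-Tm, mt-Tk, mt-Tg, mt-Tr and mt-Tt had only 69 to 219 counts each over all 6 libraries. The SEs of their log2 fold changes were 0.41 to 0.65, so the signs of these values are uncertain. The 6 not fitted (mt-Tq, mt-Ts1, mt-Td, mt-Th, mt-Ts2 and mt-Tl2) had 12 to 52 counts each over all 6 libraries, too few to show a difference of this size.

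**Figure D5:**
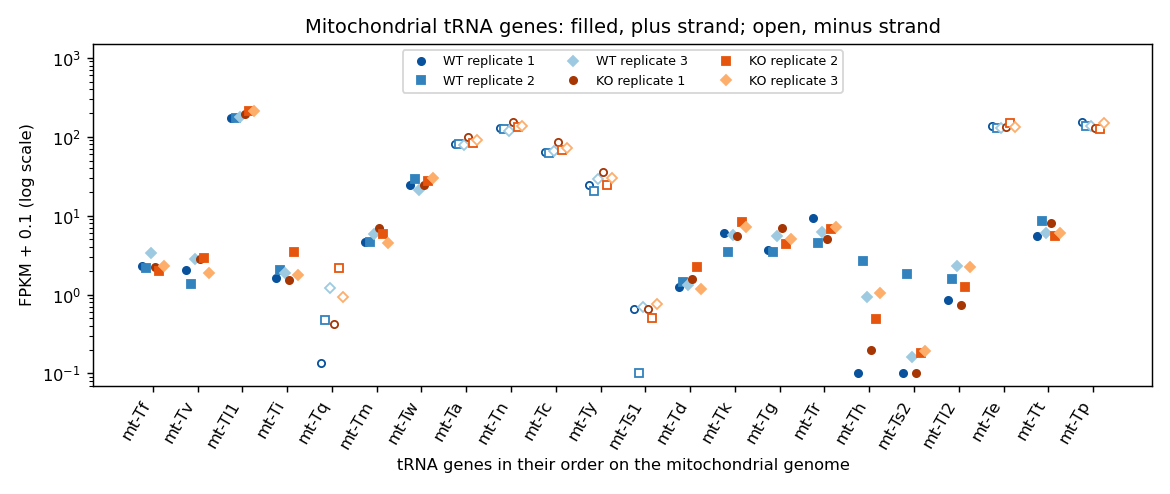
Deposited FPKM of each mitochondrial tRNA in each library, plus 0.1 so that a value of 0 can be drawn, on a log axis in genome order; filled points are plus-strand and open points minus-strand genes. mt-Tl1 and 6 of the 8 minus-strand tRNAs stand above most others, and the libraries of the 2 genotypes lie close together in the well counted tRNAs.

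The diverged copies on chromosome 2 did not share the pattern of chromosome 1. Gm13340 was at 7.18, 5.92 and 6.57 CPM in WT and 6.23, 5.26 and 5.52 in KO, a log2 fold change of -0.21 (SE 0.132, 95% interval -0.52 to 0.10). Gm13341 was at 0.691, 0.753 and 0.827 CPM in WT and 0.575, 0.930 and 0.806 in KO (0.02, SE 0.323). The groups overlapped in both, and KO replicates 2 and 3 were not many times below KO replicate 1. Of the 50-base sequences of Gm13341 and Gm13340, 36.0% and 30.0% occur in another transcript, against 97% or more in each chromosome 1 copy.

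The nuclear genes that maintain and express the mitochondrial genome did not choose the set and were tested in the same edgeR fit. Over 9 lists with 172 genes fitted, 0 were called, 9 were at an unadjusted p under 0.05 (5.23%, against 10.4% of all genes), and the median log2 fold change was 0.0087. DESeq2 called 1, the initiation factor gene Mtif3 (11.2 ± 1.07 CPM in WT and 14.7 ± 0.776 in KO, edgeR adjusted p = 0.218), named after its value was seen. The lists were chosen with earlier results of these data known.

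Transcription and replication of mitochondrial DNA came first. Of 10 transcription genes fitted, 3 lay above and 7 below 0. Tfam, which packages the DNA and starts its transcription, was at 21.4 ± 1.39 CPM in WT and 23.3 ± 1.09 in KO (edgeR adjusted p = 0.641), and Mrpl12, a ribosomal protein that also binds the polymerase, had an adjusted p of 0.770. Of 10 replication and packaging genes, 6 lay above 0; Polg, the catalytic subunit of the DNA polymerase, had a mean of 45.8 CPM in WT and 46.1 in KO (adjusted p = 0.979), and the ligase gene Lig3 22.3 and 27.0 (adjusted p = 0.444). Among the 7 regulators of mitochondrial biogenesis, 5 lay above 0, with Gabpa, a transcription factor subunit, at an adjusted p of 0.909 and the coactivator gene Pprc1 at 0.962.

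Processing and decay of mitochondrial RNA were tested next. Of 12 processing genes 7 lay above 0, among them Hsd17b10, a subunit of the enzyme that cuts the 5′ ends of tRNAs (34.7 CPM in WT and 37.5 in KO, adjusted p = 0.770), and Trnt1, which adds the CCA end to tRNAs (adjusted p = 0.734). Of 8 stability genes 3 lay above 0; Lrpprc, which protects mitochondrial mRNAs, was at 77.9 CPM in WT and 75.3 in KO (adjusted p = 0.770), and the oligoribonuclease gene Rexo2 at 91.7 and 88.5 (adjusted p = 0.779). Of 16 genes of rRNA and tRNA modification 10 lay above 0, and neither the methyltransferase gene Nsun2 (adjusted p = 0.867) nor the pseudouridine synthase gene Pus1 (adjusted p = 0.883) passed.

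Translation completed the lists. Of 20 genes of tRNA charging 14 lay above 0; the isoleucine enzyme gene Iars2 was at 100.2 CPM in WT and 107.9 in KO (adjusted p = 0.434) and the threonine enzyme gene Tars2 at 28.3 and 30.4 (adjusted p = 0.752). Of 12 translation factors 7 lay above 0, with the elongation factor genes Gfm1 and Gfm2 at adjusted p-values of 0.704 and 0.981. Of 78 mitochondrial ribosomal protein genes 37 lay above 0, and their summed level was 1599 to 1646 CPM in WT and 1579 to 1624 in KO. Mrpl24 was at 54.0 ± 0.648 CPM in WT and 52.5 ± 4.41 in KO, and Mrpl51 at 35.7 ± 0.448 and 35.6 ± 2.56. No gene of these lists passed in edgeR, and a p above the threshold does not show that the levels were equal.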

How the data were processed

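Poly(A) RNA of 6 libraries was sequenced in pairs, per the labels' protocols. The submitters' processing notes list HISAT2 2.0. Which counter, build, annotation and strand setting were used is not given in the sources used here. The deposited counts are whole numbers per gene. The deposited FPKM values are, from their column names, counts that the authors scaled to gene length and library size. Another 12 columns of per-sample values belong to no sample here and were not used. All 46 genes had the same coordinates in GENCODE M21 (GRCm38), from which sequences were read.

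Libraries were grouped by labelled genotype. Genes kept by filterByExpr (16239 of 27240) were scaled by TMM and tested two-sided by quasi-likelihood in edgeR 4.0.16 (R 4.3.3), with no term beside genotype. Benjamini-Hochberg adjustment ran over all genes kept, with calls at 0.05. CPM values use TMM-scaled library sizes, SDs cover 3 libraries, fold changes are KO over WT, and intervals are at the 95% level. Totals were 68053008, 75345469 and 79090732 counts in WT and 74172804, 73095645 and 72559141 in KO libraries. Chi-square tests between libraries of 1 group gave 39.7 to 46.5 per degree of freedom, so none was taken as a duplicate. Every member could be named. Each machinery list gave its genes past the threshold or else its 2 most abundant, and the list of RNAs without a poly(A) tail gave its 4 most abundant of those fitted. The members and lists were chosen with earlier results of these data known. On counts simulated for this comparison (15692 genes tested), edgeR recovered 44 of 100 genes changed 2-fold and 72 of 100 changed 4-fold. These were 47.3% and 75.8% of the changed genes kept by the filter. It also called 12 unchanged genes. Alternatives were other scalings, no filter, the DESeq2 1.42.0 Wald test, limma 3.58.1 on log2(FPKM + 1) for genes reaching an FPKM of 1 in 3 or more libraries, the replicate number as a block, each library left out, summed FPKM and, chosen after seeing the data, each chromosome 1 copy summed with its mitochondrial gene.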

Additional observations from a re-analysis of the deposited data

How the results depend on the processing

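The 11 genes that passed in edgeR became 7 without a filter on low counts, 457 with DESeq2 and 7 to 35 with 1 library left out (7 without WT replicate 1, 24 without WT replicate 2 and 35 without KO replicate 1). Of the mitochondrial genes and copies 0 passed; DESeq2 called 8, and leaving out 1 library gave 0 to 12, with 12 without KO replicate 1 and 1 without WT replicate 2. Of the machinery genes 0 passed, 1 with DESeq2 and 0 with any library left out. Correlations of deviations from the group mean were 0.035, 0.051 and 0.0059 for WT and KO libraries of the same replicate number. For different numbers they were -0.057 to 0.019. With 3 libraries in each group, these values cannot decide whether the replicate numbers pair the libraries. The fit with the replicate number as a block called 3 genes and 0 members.

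The summed mRNA level, 0.15 on the log2 scale, was 0.25 on summed FPKM, 0.13 to 0.18 with 1 library left out and -0.0026 with the chromosome 1 copies added. The rRNA sum (0.28) ranged from 0.26 to 0.32 and the tRNA sum (0.13) from 0.12 to 0.15 with 1 library left out. The copies' sum (-2.32) ranged from -4.74 without KO replicate 1 to -1.80. Over the settings that kept each member as a single gene, 510 of 520 log2 fold changes moved by less than 1 SD between replicates and 10 by more. Of these values 11 changed sign, all in Gm13341, mt-Nd2, mt-Te, mt-Ti, mt-Tr and mt-Tt. The sums of copy and mitochondrial gene are not among the 520. There the median over the 7 pairs went from 0.41 to 0.02, with mt-Atp6 at -1.05. The causes were not tested. Counts limit the 6 tRNAs left out of the fit; for the copies, the spread between KO libraries does.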
